A study of Homo sapiens with 12 samples.

Results

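The 39 genes described here encode lysosomal enzymes, lysosomal membrane proteins and the transcription factors TFEB and TFE3. They were chosen by name from the deposited table, which lists 26485 genes, and 38 of them were among the 14164 genes with enough counts to be tested. The RNA came from HEL cells, a human erythroleukemia line that serves as a model of acute myeloid leukemia (AML), all carrying genetic barcodes that mark clones. Untreated cells (NT, n = 2) were cultured with 0.1 µM DMSO, and the other groups were relapses, that is, cells that survived 72 h of drug and grew back over about 30 days. The drugs were 1.8 µM doxorubicin (Doxo, n = 3), the same with 6 µM cytarabine (Doxo+Cyta, n = 3), or both with 0.1 µM of the hypomethylating agent decitabine (Doxo+Cyta+DAC, n = 4). All groups derive from 1 cell line, no group received decitabine alone, and each relapse holds only the clones that survived its treatment. The series' own outline counts 3 untreated replicates, whereas 2 samples carry that label.

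Lysosomes are acidic organelles in which hydrolases break down proteins, glycans and lipids delivered by endocytosis and autophagy. TFEB and TFE3 belong to the MiT family of basic helix-loop-helix factors, and when nutrients are scarce or lysosomes are damaged they enter the nucleus and switch on many lysosomal genes through a promoter element called CLEAR, whose core is an E-box. When nutrients are plentiful, the kinase mTOR on the lysosome surface keeps them in the cytoplasm. The RNA level of a factor therefore does not tell how much of it is in the nucleus, and only RNA was measured here.

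Levels are CPM, counts scaled to a common library total, after scaling by the trimmed mean of M values (TMM). Total counts per library lay between 12763582 and 19106235, and 3 counts, taken as the lowest level a library could show, corresponded to 0.154 to 0.238 CPM. A gene was called higher or lower at an adjusted p under 0.05 in edgeR's quasi-likelihood test with Benjamini-Hochberg adjustment over all tested genes. SGSH, which encodes the heparan sulfate enzyme sulfamidase, was the member left untested, with 0 counts in all 12 libraries. Whether that 0 comes from the annotation used for counting or from absent RNA was not tested. Within groups, Doxo replicate 4 and Doxo+Cyta replicate 20 stood apart over the whole table. The chi-square per gene between replicates was 27.3 and 29.7 for the pairs with Doxo replicate 4 and 3.10 for the other Doxo pair, and 46.7 and 48.5 for the pairs with Doxo+Cyta replicate 20 and 7.33 for the other.

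The plainest pattern lay in the Doxo+Cyta+DAC relapses. TFEB was about 3.78 times lower than in NT and TFE3 1.49 times lower, while the lysosomal membrane genes LAMP1 and MCOLN1 were 2.11 and 2.78 times higher. The lipid-handling genes NPC2, PSAP and ASAH1 and the glycosidases GAA, HEXA, MANBA and MAN2B1 were lower, and CTSC, PPT1, ARSB and IDS were higher. Over all tested genes 24.9% were higher than in NT and 23.7% lower, near the shares of the members. The calls of TFE3, NPC2, PSAP and HEXA were lost when certain single libraries were left out. In Doxo relapses 7 members were higher than NT and 2 lower, beside 6.06% and 4.63% of all tested genes, and in Doxo+Cyta relapses 2 were higher, beside 0.911%. All of these counts fell to 0 when either NT replicate was left out.

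The promoters of members were read from RefSeq windows on GRCh38.p14 that run from 250 bases before to 50 bases after a transcription start, which were at hand for 28 of the 39 members in 42 windows. The E-box core CACGTG was searched on both strands, and so was TCACGTG, the longer form found in the CLEAR element, every match of which also matches the core. The longer form was in 16.7% of the member windows, those of ARSB, CTSA, CTSD, GAA, LAMP1, MCOLN1 and NEU1, and in 3.71% of all 35116 windows. The core was in 19.0% of the member windows, CD63 adding to the same genes, and in 7.26% of all windows. A match is a description of the letters and does not show that a factor binds there.

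Sequence before the start is shown for the 4 genes with TCACGTG that differed most between Doxo+Cyta+DAC and NT, since 3 of them rose and 1 fell with the motif present. Capitals mark TCACGTG on either strand, and an 8-base run in capitals is a pair of matches that overlap on opposite strands. The MCOLN1 stretch is chr19:7522424-7522623 on the plus strand, with runs that begin 42 and 15 bases before the start. It holds 14 exonic bases. The deposited gene begins at base 7522610, so the run nearer the start lies mostly inside its first exon. The GAA stretch is chr17:80101381-80101562 on the plus strand, with runs 77 and 32 bases before the start. The LAMP1 stretch is chr13:113297039-113297183 on the plus strand and holds 4 of the 6 runs of its window, at 193, 177, 160 and 143 bases before the start. The GAA and LAMP1 stretches hold 30 exonic bases each. The ARSB stretch is chr5:78986100-78986129 on the minus strand, with a single match 160 bases before the start, and it lies inside the first exon that the deposited table gives for ARSB, so it is upstream only of a shorter transcript.
MCOLN1: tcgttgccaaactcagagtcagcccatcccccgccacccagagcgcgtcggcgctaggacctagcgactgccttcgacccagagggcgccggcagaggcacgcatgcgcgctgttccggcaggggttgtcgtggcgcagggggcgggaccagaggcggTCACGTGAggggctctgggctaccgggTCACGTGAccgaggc
GAA: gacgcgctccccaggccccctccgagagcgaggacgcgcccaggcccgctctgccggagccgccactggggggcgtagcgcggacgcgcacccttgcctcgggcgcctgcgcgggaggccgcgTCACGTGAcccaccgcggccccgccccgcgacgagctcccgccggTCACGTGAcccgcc
LAMP1: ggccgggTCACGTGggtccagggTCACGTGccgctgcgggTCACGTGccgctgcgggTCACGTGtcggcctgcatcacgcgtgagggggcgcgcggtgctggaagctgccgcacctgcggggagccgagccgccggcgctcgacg
ARSB: aattcaataagCACGTGActaaaggatttt

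TFEB (chr6:41683978-41736259, minus strand) was the factor with the larger difference. It stood at 5.97 and 5.96 CPM in NT, at 5.51, 8.44 and 9.28 in Doxo, at 7.17, 9.67 and 8.74 in Doxo+Cyta, and at 1.65, 1.38, 1.78 and 1.43 in Doxo+Cyta+DAC. All 4 libraries with decitabine lay below all 8 others, and within Doxo replicate 4 was the lowest, under both NT libraries. The log2 difference of Doxo+Cyta+DAC was -1.92 (SE 0.23, adjusted p = 2.7e-05, edgeR) against NT, -2.30 (SE 0.21, adjusted p = 1.4e-06) against Doxo and -2.43 (SE 0.21, adjusted p = 6.1e-07) against Doxo+Cyta. The relapses without decitabine did not pass the threshold against NT, with Doxo at 0.38 (SE 0.23, adjusted p = 0.30, edgeR) and Doxo+Cyta at 0.52 (SE 0.23, adjusted p = 0.23).

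TFE3 (chrX:49028726-49043517, minus strand), the other factor, was the more abundant of the pair per kilobase of exon, at a mean of 13.6 CPM per kb in NT against 2.18 for TFEB. It stood at 46.7 and 47.2 CPM in NT, at 58.5, 80.4 and 78.1 in Doxo, at 72.6, 60.7 and 66.1 in Doxo+Cyta, and at 25.8, 32.7, 36.6 and 30.7 in Doxo+Cyta+DAC. The groups formed steps without overlap, Doxo+Cyta+DAC lowest, NT next, and both other relapses above NT and overlapping each other. TFE3 was higher in Doxo than in NT by 0.62 on the log2 scale (SE 0.17, adjusted p = 0.030, edgeR). In Doxo+Cyta it differed from NT by 0.50 (SE 0.17, adjusted p = 0.12), not past the threshold. In Doxo+Cyta+DAC the log2 difference was -0.58 from NT (SE 0.15, adjusted p = 0.0072, edgeR), which lost its call without NT replicate 2 (adjusted p = 0.051), and -1.20 from Doxo (SE 0.14, adjusted p = 7.4e-06).

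Among all members the comparison of Doxo+Cyta+DAC with NT called 8 higher and 10 lower of 38. Over all tested genes 24.9% were called higher and 23.7% lower, so the members' counts were near the background in both directions. Their median log2 difference was -0.13, beside 0.02 for all tested genes. Against Doxo the counts were 8 higher and 18 lower, beside 29.1% and 30.4% of all genes, with a median of -0.30 beside -0.01. Against Doxo+Cyta they were 5 higher and 18 lower, beside 29.8% and 30.5% of all genes, with a median of -0.31 beside 0.00. The 3 comparisons share the decitabine libraries and are not independent of each other.

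**Figure D1:**
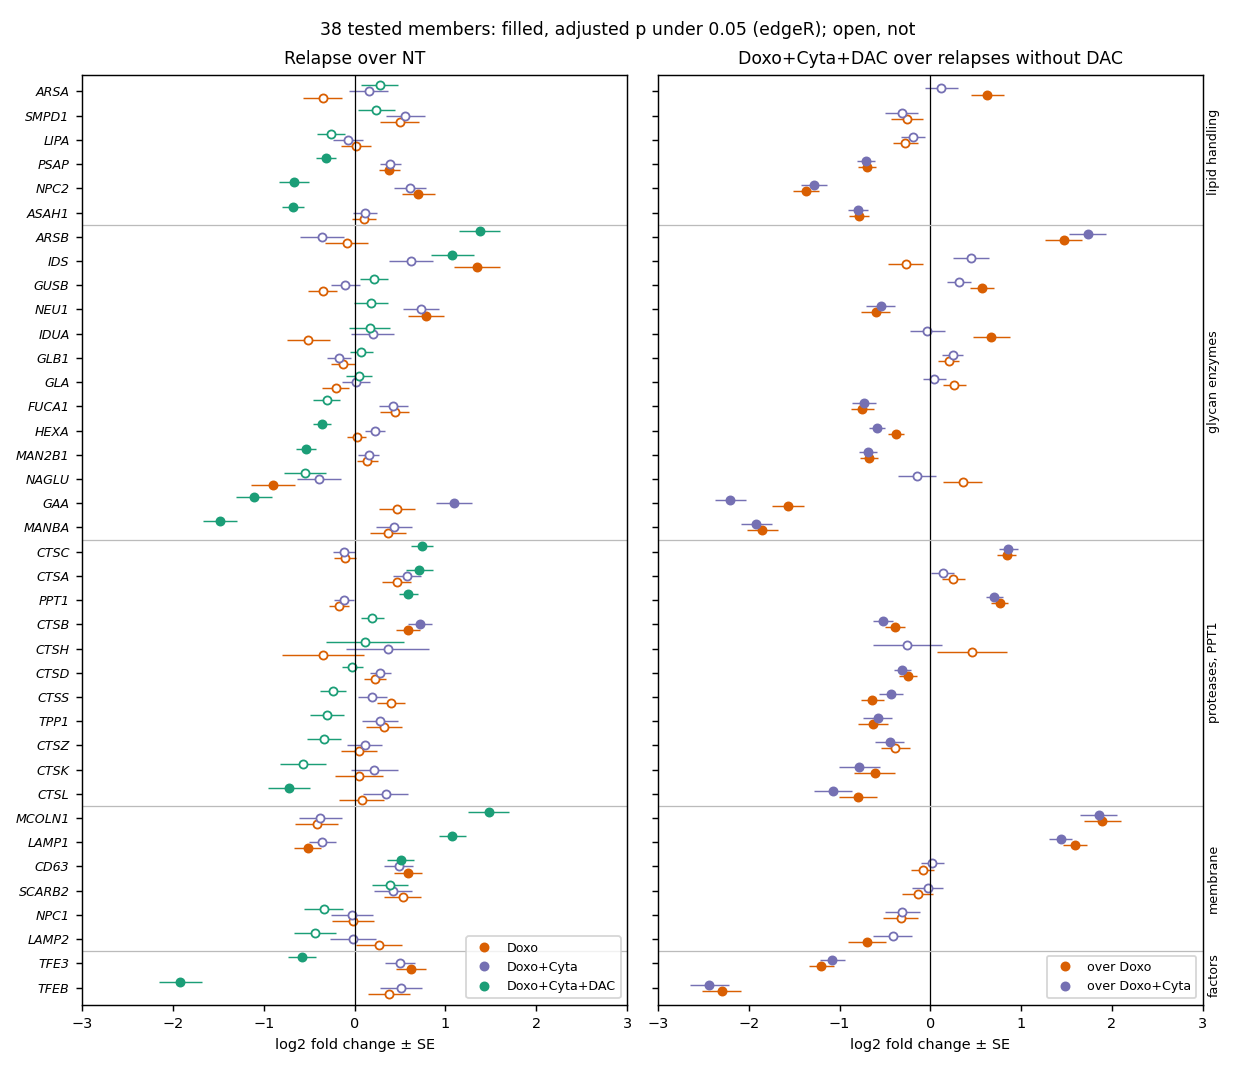
Log2 fold change with its SE (horizontal axis) of the 38 tested members, grouped by role, for each relapse over NT (left) and for Doxo+Cyta+DAC over the relapses without decitabine (right), with filled points at an adjusted p under 0.05. MCOLN1 and LAMP1 lie right of 0 and TFEB, MANBA and GAA left of 0 wherever Doxo+Cyta+DAC is compared.

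The 6 membrane proteins summed to 407 to 450 CPM in Doxo+Cyta+DAC, above the 305 to 309 of NT. The sums were 335 to 409 CPM in Doxo and 334 to 380 in Doxo+Cyta. Every relapse library thus lay above NT, and Doxo overlapped Doxo+Cyta+DAC. CD63 was the largest single part of the sum in every library, from 141 CPM in NT replicate 2 to 258 in Doxo+Cyta replicate 20. LAMP1, MCOLN1 and CD63 were called higher in Doxo+Cyta+DAC than in NT and none lower, beside 24.9% and 23.7% of all tested genes. LAMP1 (chr13:113297154-113323426, plus strand), a heavily glycosylated protein that coats the inner face of the membrane, stood at 54.9 and 52.1 CPM in NT, at 44.3, 32.0 and 35.8 in Doxo, at 38.5, 44.4 and 42.3 in Doxo+Cyta, and at 106, 115, 129 and 101 in Doxo+Cyta+DAC. The libraries with decitabine were the highest 4 of the 12, and both other relapse groups lay under NT. LAMP1 rose by 1.08 on the log2 scale over NT (SE 0.15, adjusted p = 6.4e-05, edgeR), by 1.6 over Doxo (SE 0.13, adjusted p = 5.6e-07) and by 1.44 over Doxo+Cyta (SE 0.13, adjusted p = 7.6e-07). In Doxo it was lower than in NT (log2 difference -0.52, SE 0.15, adjusted p = 0.040, edgeR), and a difference of -0.36 between Doxo+Cyta and NT (SE 0.15, adjusted p = 0.20) was not past the threshold.

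MCOLN1 (chr19:7522610-7534009, plus strand) encodes the calcium channel mucolipin-1. Its levels were 8.75 and 7.74 CPM in NT, 7.68, 5.94 and 4.99 in Doxo, 6.12, 8.41 and 4.58 in Doxo+Cyta, and 26.4, 20.7, 22.9 and 21.9 in Doxo+Cyta+DAC. The decitabine libraries were all above the rest, and Doxo+Cyta overlapped NT. The log2 difference over NT was 1.48 (SE 0.23, adjusted p = 0.00017, edgeR), the largest rise of any member in that comparison, and it was 1.89 over Doxo and 1.85 over Doxo+Cyta.

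LAMP2 (chrX:120426148-120469349, minus strand), the paralog of LAMP1 that also serves chaperone-mediated autophagy, did not follow it. It stood at 69.7 and 79.6 CPM in NT, at 63.3, 106 and 100.3 in Doxo, at 85.6, 47.3 and 87.9 in Doxo+Cyta, and at 48.6, 50, 57.9 and 64.2 in Doxo+Cyta+DAC. Doxo replicate 4 fell among the decitabine libraries and Doxo+Cyta replicate 20 just under them, while both NT libraries lay above them. LAMP2 was lower in Doxo+Cyta+DAC than in Doxo (log2 difference -0.70, SE 0.21, adjusted p = 0.010, edgeR), a call lost without Doxo replicate 5 (adjusted p = 0.056). It differed by -0.44 from NT (SE 0.24, adjusted p = 0.14), which became a call in a fit to these groups alone (-0.47, adjusted p = 0.0069, edgeR). From Doxo+Cyta it differed by -0.42 (SE 0.21, adjusted p = 0.10), which became a call without Doxo+Cyta replicate 20 (-0.66, adjusted p = 0.0046, edgeR). The other membrane members were CD63, a tetraspanin, which was higher than NT by 0.51 in Doxo+Cyta+DAC (SE 0.15, adjusted p = 0.012, but 0.055 and 0.11 without NT replicate 1 or 2), and SCARB2 and NPC1, which were called in no comparison.

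The 11 proteases and the thioesterase PPT1 among them moved both ways in Doxo+Cyta+DAC. Against NT, CTSC, which activates granule serine proteases, was higher by 0.74 (SE 0.12, adjusted p = 0.00024, edgeR), PPT1, which removes fatty acids from proteins, by 0.59 (SE 0.11, adjusted p = 0.00055), and CTSA, the protective protein of NEU1 and GLB1, by 0.71 (SE 0.15, adjusted p = 0.0015). CTSL, an endopeptidase, was lower by 0.72 (log2 difference -0.72, SE 0.23, adjusted p = 0.020), a call lost without NT replicate 1 or 2 (adjusted p = 0.15 and 0.052). Of the exon bases of CTSA, 23.4% overlap NEURL2 or PLTP, and the counting left out fragments shared between genes. Against Doxo+Cyta, 7 members of this role were lower, namely CTSB, CTSD, CTSK, CTSL, CTSS, CTSZ and TPP1, and CTSC and PPT1 were higher, beside 30.5% and 29.8% of all genes. The call of CTSZ was lost without Doxo+Cyta replicate 20, Doxo+Cyta+DAC replicate 30 or Doxo+Cyta+DAC replicate 31, and in a fit to the groups compared alone (adjusted p up to 0.11).

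CTSB, a cathepsin with endo- and exopeptidase activity, stood at 179.9 and 176 CPM in NT, at 222, 287 and 296 in Doxo, at 294, 271 and 314 in Doxo+Cyta, and at 226, 191, 209.5 and 189.9 in Doxo+Cyta+DAC. Every relapse library lay above both NT libraries, and Doxo replicate 4 fell within the range of the decitabine libraries. CTSB was higher than NT by 0.59 in Doxo (SE 0.13, adjusted p = 0.015, edgeR), while Doxo+Cyta was higher than NT by 0.72 (SE 0.14, adjusted p = 0.028). In Doxo+Cyta+DAC it differed from NT by 0.20 (SE 0.13, adjusted p = 0.22), and it was lower than in Doxo+Cyta (log2 difference -0.52, SE 0.11, adjusted p = 0.00098, edgeR).

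The 14 glycosidases and glycan sulfatases held the largest single falls outside TFEB. MANBA (chr4:102631486-102760994, minus strand), which removes mannose from N-glycans, stood at 29.8 and 26.5 CPM in NT, at 29.7, 40.5 and 38.5 in Doxo, at 40.9, 35.5 and 37.4 in Doxo+Cyta, and at 9.19, 7.63, 10.0 and 13.5 in Doxo+Cyta+DAC. The decitabine libraries lay below all others, and Doxo replicate 4 lay between the NT libraries. Its log2 difference in Doxo+Cyta+DAC was -1.49 from NT (SE 0.19, adjusted p = 3.5e-05, edgeR), -1.85 from Doxo and -1.92 from Doxo+Cyta.

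GAA (chr17:80101556-80119880, plus strand), the acid alpha-glucosidase that degrades glycogen, was at the low end of expression. It stood at 4.94 and 4.41 CPM in NT, at 6.77, 6.11 and 6.50 in Doxo, at 10.9, 9.27 and 9.78 in Doxo+Cyta, and at 1.65, 2.48, 2.47 and 2.06 in Doxo+Cyta+DAC. All 4 groups were apart from each other, in the order Doxo+Cyta+DAC, NT, Doxo and Doxo+Cyta. Its log2 difference in Doxo+Cyta+DAC was -1.11 from NT (SE 0.20, adjusted p = 0.00049, edgeR), -1.57 from Doxo (SE 0.18, adjusted p = 6.3e-06) and -2.20 from Doxo+Cyta (SE 0.17, adjusted p = 2.9e-07). In Doxo+Cyta it was higher than in NT by 1.10 (SE 0.20, adjusted p = 0.026, edgeR), and in Doxo the 0.46 (SE 0.20, adjusted p = 0.15) was not past the threshold.

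ARSB (chr5:78777211-78986534, minus strand), a sulfatase of dermatan and chondroitin sulfate, went the other way. It stood at 4.63 and 6.37 CPM in NT, at 6.49, 4.31 and 4.73 in Doxo, at 4.39, 4.94 and 3.54 in Doxo+Cyta, and at 13, 12, 15.7 and 16.4 in Doxo+Cyta+DAC. The first 3 groups overlapped, and all decitabine libraries were above them. ARSB was higher than NT by 1.38 (SE 0.23, adjusted p = 0.00027, edgeR), than Doxo by 1.47 (SE 0.20, adjusted p = 3e-05) and than Doxo+Cyta by 1.73 (SE 0.20, adjusted p = 7.1e-06).

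IDS (chrX:149478764-149505354, minus strand) encodes iduronate 2-sulfatase, which starts the breakdown of heparan and dermatan sulfate. It stood at 61.9 and 75.1 CPM in NT, at 137, 200.3 and 185 in Doxo, at 107, 91.2 and 119 in Doxo+Cyta, and at 129, 95.1, 184 and 169 in Doxo+Cyta+DAC. All relapse libraries were above both NT libraries, with a wide spread among the decitabine libraries. IDS was higher than NT by 1.35 in Doxo (SE 0.25, adjusted p = 0.0060, edgeR), the largest rise of a member there, and by 1.08 in Doxo+Cyta+DAC (SE 0.24, adjusted p = 0.0021), while in Doxo+Cyta the 0.63 (SE 0.24, adjusted p = 0.17) was not past the threshold.

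NAGLU (chr17:42535933-42544448, plus strand), a further enzyme of heparan sulfate breakdown, was one of the 2 members lower in Doxo than in NT. It stood at 29.5 and 30.3 CPM in NT, at 20.0, 15.5 and 12.6 in Doxo, at 18.3, 32.8 and 17.3 in Doxo+Cyta, and at 22.1, 21.5, 20.0 and 18.5 in Doxo+Cyta+DAC. Doxo+Cyta replicate 20 alone among the relapses was above NT. The log2 difference of Doxo from NT was -0.90 (SE 0.24, adjusted p = 0.032, edgeR), and that of Doxo+Cyta+DAC was -0.54 (SE 0.23, adjusted p = 0.064).

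NEU1, the sialidase on chromosome 6 whose deposited entry also spans alternate contigs, 8 contigs in all, stood at 24.6 and 21.8 CPM in NT, at 28.5, 43.7 and 47.5 in Doxo, at 40.5, 35.4 and 39.4 in Doxo+Cyta, and at 24.3, 28.4, 29.8 and 22.6 in Doxo+Cyta+DAC. Doxo replicate 4 lay within the decitabine range, and the other Doxo and Doxo+Cyta libraries lay above it. NEU1 was higher in Doxo than in NT by 0.78 (SE 0.20, adjusted p = 0.025, edgeR) and lower in Doxo+Cyta+DAC than in Doxo (log2 difference -0.60, SE 0.16, adjusted p = 0.0055). Of the remaining members of this role, HEXA and MAN2B1 were lower in Doxo+Cyta+DAC than in NT, at log2 differences of -0.36 and -0.53. The call of HEXA was lost without NT replicate 1 or 2 (adjusted p = 0.069 and 0.060, edgeR), and that of MAN2B1 was kept in every alternative run. In Doxo+Cyta+DAC, FUCA1 was lower than in both relapse groups without decitabine. GUSB, IDUA and ARSA, the last a sulfatide sulfatase grouped with lipid handling, were higher there than in Doxo. The calls of IDUA and ARSA were lost in 1 and 2 of 11 alternatives. GLA and GLB1 were called in no comparison. For IDUA, 6.4% of exon bases overlap SLC26A1.

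The 6 lipid-handling genes summed to 551 to 658 CPM in Doxo+Cyta+DAC, under the 792 to 798 of NT and the 883 to 1039 of Doxo, and 3 of the 6 were called lower than in NT and none higher, beside 23.7% and 24.9% of all tested genes. NPC2 (chr14:74479940-74493381, minus strand), the soluble protein that hands cholesterol to NPC1, stood at 17.0 and 15.7 CPM in NT, at 20.2, 30.6 and 28.9 in Doxo, at 27.6, 25.4 and 22.1 in Doxo+Cyta, and at 10.2, 9.77, 10.7 and 10.5 in Doxo+Cyta+DAC. The decitabine libraries were tightly grouped below NT, and both other relapse groups lay above NT. NPC2 was higher in Doxo than in NT by 0.70 (SE 0.18, adjusted p = 0.024, edgeR). In Doxo+Cyta+DAC its log2 difference was -0.67 from NT (SE 0.17, adjusted p = 0.0047), not called without NT replicate 1 (adjusted p = 0.055), and -1.37 from Doxo (SE 0.15, adjusted p = 4.6e-06, edgeR).

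PSAP, the precursor of the saposins that assist sphingolipid enzymes, was the most highly expressed member per length in NT, at a mean of 178 CPM per kb, and it carried most of the lipid-handling sum. Its log2 difference in Doxo+Cyta+DAC was -0.31 from NT (SE 0.11, adjusted p = 0.027, edgeR), -0.70 from Doxo and -0.71 from Doxo+Cyta. The call against NT was lost without NT replicate 1 or 2 and without Doxo+Cyta+DAC replicate 30 or 31 (adjusted p from 0.065 to 0.14). ASAH1, the acid ceramidase, differed by -0.68 from NT (SE 0.12, adjusted p = 0.00048), and by -0.79 and -0.80 from the other relapses. LIPA, the acid lipase, and SMPD1, the acid sphingomyelinase, were called in no comparison.

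**Figure D2:**
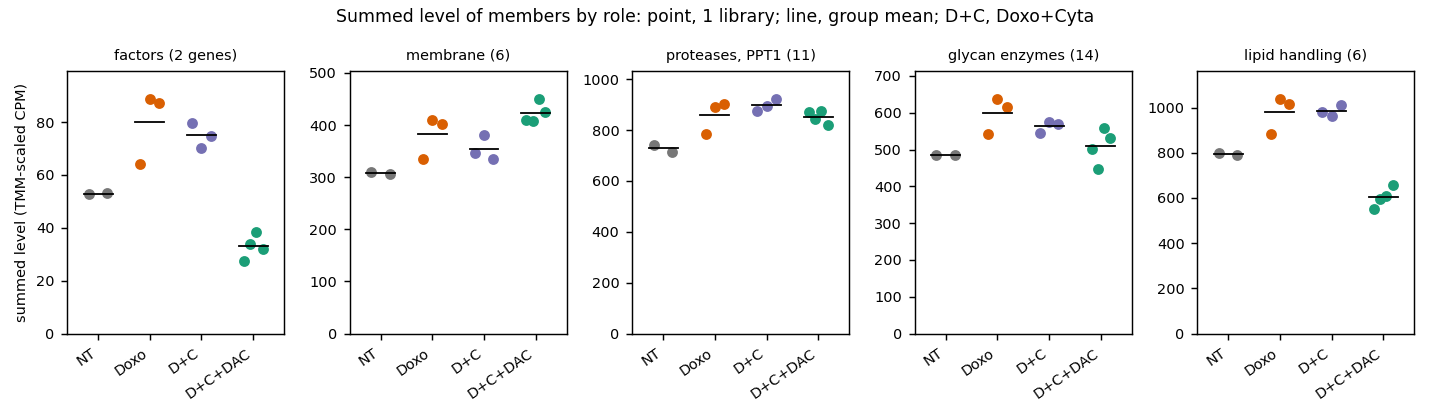
Summed level (CPM with TMM scaling, linear axes from 0) of the members of each role, with 1 point per library and a line at the group mean, over NT, Doxo, Doxo+Cyta (D+C) and Doxo+Cyta+DAC (D+C+DAC). The 4 decitabine libraries sit below all others for the 2 factors and for lipid handling, while all 39 genes together summed to 2327 to 2531 CPM there and to 2350 to 2386 in NT.

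Relapses without decitabine differed less from NT. In Doxo, TFE3, CD63, CTSB, NEU1, NPC2, PSAP and IDS were higher and LAMP1 and NAGLU lower, beside 6.06% of all tested genes called higher and 4.63% lower, with a median log2 difference of 0.12 for members and 0.01 for all genes. These calls rested on few libraries. No member was called without either NT replicate, and only IDS was called without Doxo replicate 5 or without Doxo replicate 6, while 9 were higher and 3 lower without Doxo replicate 4. Calls over all tested genes moved alike, from 1515 to 81 and 105 without NT replicate 1 or 2, to 462 and 500 without Doxo replicate 5 or 6, and to 3137 without Doxo replicate 4. In Doxo+Cyta, GAA and CTSB were higher and none lower, beside 0.911% and 0.551% of all genes, with a median of 0.22 beside 0.01, and 15 members had an unadjusted p under 0.05. Neither gene was called without either NT replicate, or without Doxo+Cyta replicate 19 or 22, and without either NT replicate 0 genes of the whole table were called by edgeR in this comparison, beside 207 with all libraries.

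Between Doxo+Cyta and Doxo, separate relapses with and without cytarabine, edgeR called 0 members, beside 1.07% of all genes higher and 2.32% lower. The log2 differences ran from -0.72 for IDS to 0.71 for CTSH, and 5 members had an unadjusted p under 0.05. DESeq2 called GAA and IDUA higher and IDS lower in the same comparison, where it called 909 genes of the whole table and edgeR 481. A p that misses the threshold does not show that the groups were alike.

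Members with and without TCACGTG in a promoter window were both called in both directions. Of the 7 genes with the motif, LAMP1, CTSA, ARSB and MCOLN1 were higher in Doxo+Cyta+DAC than in NT and GAA was lower. Of the 21 genes with a window and no such match, 4 were higher and 5 lower, the latter including TFEB and TFE3 themselves. Against Doxo+Cyta, 3 of the 7 were higher and 3 lower, and 2 of the 21 were higher and 8 lower. Over all tested genes 24.9% were higher and 23.7% lower against NT, and 29.8% and 30.5% against Doxo+Cyta.

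Further genes of the pathway were taken from lists written for this comparison. Among 28 other lysosomal enzymes and membrane proteins, 9 were higher and 8 lower in Doxo+Cyta+DAC than in NT, led by LGMN, the asparaginyl protease legumain, at a log2 difference of -3.08 (SE 0.35, adjusted p = 1.5e-05, edgeR) with only 3 to 6 counts per decitabine library, CTSF at -2.30 (SE 0.23, adjusted p = 5.8e-06) and the sialic acid exporter SLC17A5 at -1.71 (SE 0.28, adjusted p = 0.00025). Of 18 subunits of the V-ATPase, the pump that acidifies the lysosome, 9 were higher and 3 lower, led by ATP6V0D1 at 1.18 (SE 0.14, adjusted p = 1.9e-05), TCIRG1 at -1.16 and ATP6V0E2 at 0.95. Of 19 genes of sorting and trafficking, 10 were higher and 3 lower, led by NAGPA, which uncovers the mannose 6-phosphate signal, at 1.88 (SE 0.42, adjusted p = 0.0023), CLN6 at 1.41 and VPS33A at 0.82. Medians were 0.18, 0.36 and 0.35 for these lists, beside 0.02 for all genes, of which 24.9% were higher and 23.7% lower. Without NT replicate 1 or 2, fewer of the sorting genes and of the other lysosomal genes were called higher than in NT, and fewer genes of the whole table were called too.

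Of 20 genes of nutrient sensing and MiT factors, 3 were higher and 3 lower in Doxo+Cyta+DAC than in NT. Over all tested genes 24.9% were higher and 23.7% lower there. RRAGD, a Rag GTPase that recruits TFEB and TFE3 to the lysosome, differed by -2.23 (SE 0.19, adjusted p = 1.9e-06, edgeR), MITF, a further MiT factor, by -1.43 (SE 0.35, adjusted p = 0.0039), and RPTOR, a subunit of mTORC1, by 1.08 (SE 0.17, adjusted p = 0.0002). MTOR was lower in Doxo than in NT (log2 difference -0.79, SE 0.17, adjusted p = 0.011), likewise lower with cytarabine added (-0.83, SE 0.17, adjusted p = 0.034), both calls lost without NT replicate 1 or 2, and higher in Doxo+Cyta+DAC than in Doxo by 1.71 (SE 0.15, adjusted p = 8.4e-07). Of 22 tested autophagy genes, 4 were higher and 5 lower in Doxo+Cyta+DAC than in NT, beside the same 24.9% and 23.7% of all genes. They were led by GABARAPL1 at -1.39, ATG16L1 at 1.29 and WIPI1 at -1.26.

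**Figure D3:**
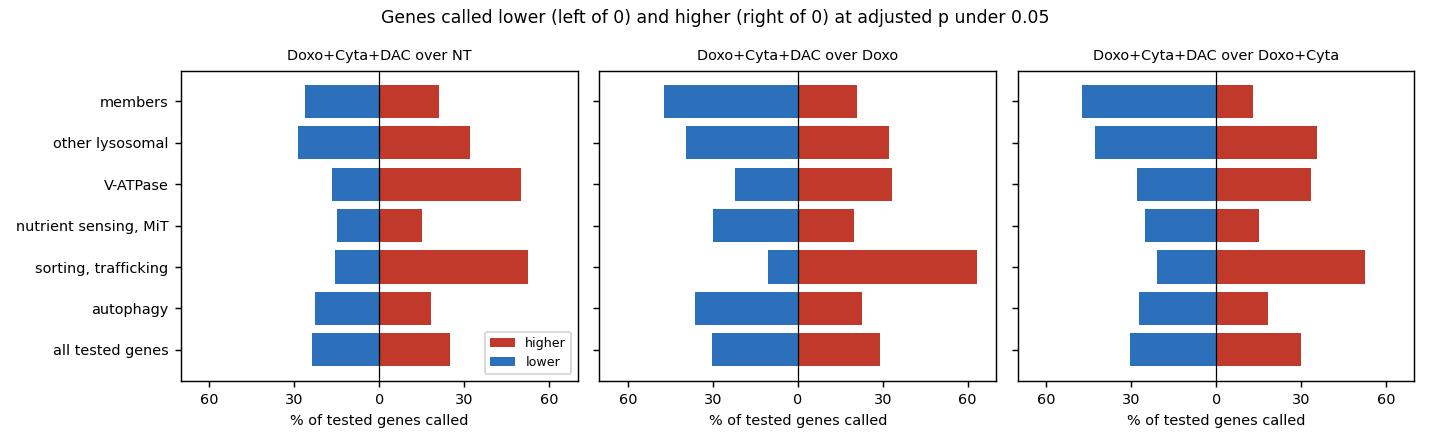
Share of tested genes (horizontal axis, %) called lower (left of 0) and higher (right of 0) at an adjusted p under 0.05 for the members, the 5 further lists and all tested genes, in the 3 comparisons of Doxo+Cyta+DAC. Against NT the V-ATPase list has 9 of 18 genes higher and the sorting list 10 of 19, beside 24.9% of all genes. Against Doxo the V-ATPase list has 6 of 18 higher and 4 lower, beside 29.1% and 30.4% of all genes. Against Doxo+Cyta it has 6 higher and 5 lower, beside 29.8% and 30.5%. The sorting list has 12 of 19 higher against Doxo and 10 against Doxo+Cyta, with 2 and 4 lower.

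In Doxo compared with NT, 6.06% of all tested genes were higher and 4.63% lower. Of the 28 other lysosomal genes, 5 were higher there and none lower. They were led by CTSO at 1.61 (SE 0.41, adjusted p = 0.025, edgeR), CD68 at 1.27 (SE 0.20, adjusted p = 0.0029) and CTSF at 0.89. V-ATPase genes were higher in 3 of 18, the largest being ATP6AP1 at 0.75 (SE 0.19, adjusted p = 0.026). Autophagy genes were higher in 4 of 22 and lower in 1, and MAP1LC3B, whose product coats autophagosomes, rose by 1.17 (SE 0.15, adjusted p = 0.00067, edgeR). In Doxo+Cyta compared with NT, CTSF and CD68 were higher, each by 0.96, and MTOR was the single other call in these 5 lists, beside 0.911% of all genes higher and 0.551% lower. All 3 calls were lost without either NT replicate. In Doxo, MAP1LC3B was the only gene of these lists still called without either NT replicate.

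HEL cells carry erythroid and megakaryocytic genes, and markers of both were checked. The 9 erythroid markers summed to 7529 to 8623 CPM in NT, 8285 to 9338 in Doxo, 9234 to 10383 in Doxo+Cyta and 5798 to 8392 in Doxo+Cyta+DAC, and none was at or under the floor of 3 counts in any group. GATA1 and KLF1, 2 of the 9, were lower in Doxo+Cyta+DAC than in NT, beside 23.7% of all genes, at log2 differences of -0.62 and -0.71. Lower than in Doxo were 5 of the 9, and lower than in Doxo+Cyta 7, beside 30.4% and 30.5% of all genes. None of the 9 was higher in these comparisons. The 5 megakaryocyte markers summed to 1689 to 1745 CPM in NT, 1538 to 1818 in Doxo, 1519 to 2035 in Doxo+Cyta and 1022 to 1308 in Doxo+Cyta+DAC, with PF4 at or under the floor in every group. Of the 4 tested, GP9 and ITGA2B were lower there than in NT (log2 differences -2.12 and -0.52) and GP1BA higher (0.93), beside 23.7% and 24.9% of all genes. The same 2 were lower and the same 1 higher than in Doxo, beside 30.4% and 29.1%. This held against Doxo+Cyta too, beside 30.5% and 29.8%. The 10 myeloid markers summed to 46.3 to 48.0 CPM in NT, 54.9 to 65.1 in Doxo, 61.6 to 71.7 in Doxo+Cyta and 45.2 to 54.5 in Doxo+Cyta+DAC. MPEG1, CD163, MPO and ELANE were at or under the floor in all groups. Of the 3 tested, CSF1R was lower in Doxo+Cyta+DAC than in NT, beside 23.7% of all genes. CSF1R and LYZ were lower there than in Doxo and in Doxo+Cyta, beside 30.4% and 30.5%, and none was higher. The part of a shift between these cell states in the lysosomal values was not tested, and in bulk RNA fewer cells with a gene on and less of its RNA per cell cannot be told apart.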

How the data were processed

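RNA of 12 samples of HEL cells was sequenced as TruSeq libraries. The authors aligned the reads to GRCh38 with Bowtie2 2.2.8 and used featureCounts 1.6.0, ignoring strand, to count fragments per gene. Chimeric fragments were dropped, as were, by that tool's default, those with several alignments or touching more than 1 gene. The deposited values are whole counts, not normalized. Of 26485 rows, 4 lacked a count and were left out. 1 library named in the table's header had no column and is not analysed here. The protocol describes biological replicates, and no batch is named.

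Tests used edgeR 4.0.16 (R 4.3.3). Genes passed filterByExpr (14164), libraries were scaled by TMM, and all 12 entered 1 quasi-likelihood fit with two-sided tests, and p-values were Benjamini-Hochberg adjusted within each of 6 comparisons. SE is the log2 fold change divided by the root of F. CPM per kb uses the deposited gene length. The floor of 3 counts covers counting error only. Replicates of a group were compared and no pair agreed within sampling noise, while Doxo replicate 4 and Doxo+Cyta replicate 20 stood apart from the rest of their groups. The fit was tested on simulated data. Gene coordinates come from the deposited table (GRCh38), promoters from RefSeq (GRCh38.p14).

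Members and lists were chosen with earlier results of these data known. Values per library are given for TFEB, TFE3, LAMP1, LAMP2 and, in each comparison, the 4 called members with the largest absolute log2 fold change. At most 3 called genes per further list and comparison were named by the same measure. Alternatives were DESeq2 1.42.0, RLE scaling, no filter on low counts, a fit to the groups compared alone, and leaving out each replicate. Their effect on the further lists was added after results were seen. Figures used Python 3.11.15 and matplotlib 3.10.9. A further marker list was examined and is not reported here.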

Additional observations from a re-analysis of the deposited data

Results flagged for a closer look

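With 4 libraries, Doxo+Cyta+DAC was the group large enough for Dixon's test of a single distant library, and 38 members were tested. CTSS, a cathepsin of antigen-presenting cells, stood at 50.9 CPM in Doxo+Cyta+DAC replicate 33, while the other 3 libraries lay between 45.4 and 45.8. NPC1, the cholesterol exporter of the lysosomal membrane, stood at 15.7 CPM in Doxo+Cyta+DAC replicate 31, while the others lay between 10.3 and 11.2. These are 2 of 38 groups, and chance alone marks about 1 in 20.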

How the results depend on the processing

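The calls of TFEB, LAMP1, MCOLN1, MANBA, MAN2B1, GAA, ARSB, ASAH1, CTSC and PPT1 in the 3 comparisons of Doxo+Cyta+DAC held under every alternative run. The counts in comparisons with NT did not, and the cause was not tested. For Doxo+Cyta+DAC against Doxo, CTSD lost its call in 7 of 11 alternatives, CTSK in 5, ARSA in 2, and IDUA and LAMP2 in 1 each. Without Doxo replicate 5, 6 members were higher there, beside 8 with all libraries. Calls in both directions over the whole table were then 6966, beside 8430 with all libraries. With 1 replicate left out, members higher in Doxo than in NT ranged from 0 to 9 (7 with all libraries) and members lower from 0 to 3 (2 with all). Those higher in Doxo+Cyta than in NT ranged from 0 to 2 (2 with all), those lower in Doxo+Cyta+DAC than in NT from 6 to 11 (10 with all), and those lower in Doxo+Cyta than in Doxo from 0 to 1 (0 with all). Where 1 NT library was left, its spread was taken to be that of the other groups, and fewer genes of the whole table were called against NT as well. Without Doxo+Cyta replicate 19 or 22, 26 and 49 genes of the whole table were called in Doxo+Cyta against NT, beside 207. In a fit to the groups compared alone, 1 member was lower in Doxo than in NT and 0 were higher in Doxo+Cyta than in NT. Such fits called 1650 and 13 genes of the whole table in these comparisons, beside 1515 and 207 in the main fit. DESeq2 called 6 higher in Doxo+Cyta than in NT (PSAP, NPC2, GAA, CTSA, NEU1 and CTSB), and 2 higher and 1 lower in Doxo+Cyta than in Doxo, and without the filter on low counts 1 was lower there, IDS. Calls over the whole table also rose, in Doxo+Cyta against NT from 207 by edgeR to 828 by DESeq2. In Doxo+Cyta against Doxo they rose from 481 to 909 by DESeq2 and to 520 without the filter. Values that were not past the threshold changed sign for LAMP2 in Doxo+Cyta over NT, -0.02 with all libraries, 0.08 without NT replicate 2 and -0.18 to 0.20 over all replicates left out, and for TFEB in Doxo+Cyta over Doxo, 0.14 with all libraries and -0.042 (without Doxo replicate 4) to 0.29 over all replicates left out. No paired analysis was possible because the groups compared share no replicate numbers. The NT group of 2 libraries limits every comparison with it.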

Other observations

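CTSH, an aminopeptidase of the cathepsin family, varied most among the decitabine relapses. It stood at 20.2, 48.1, 13 and 10.7 CPM in Doxo+Cyta+DAC replicates 30 to 33, at 21.2 and 21.3 in NT, and at 13.8, 18.2 and 18.2 in Doxo, while Doxo+Cyta gave 23.7, 32.7 and 25.7. The Doxo libraries lay under NT and the Doxo+Cyta libraries above it, and CTSH was called in no comparison, with SE of its log2 differences from 0.38 to 0.45.

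TCIRG1, a V-ATPase subunit, and MAP1LC3B were the genes of the further lists that differed between Doxo+Cyta and Doxo. TCIRG1 was higher in Doxo+Cyta by 0.68 on the log2 scale (SE 0.13, adjusted p = 0.014, edgeR) and MAP1LC3B lower (log2 difference -0.71, SE 0.13, adjusted p = 0.0085). The call of TCIRG1 was lost without Doxo replicate 5 or 6, and that of MAP1LC3B without Doxo+Cyta replicate 19. Mean TCIRG1 levels were 152 CPM in NT, 139.9 in Doxo, 223 with cytarabine added and 67.8 with decitabine as well, and MAP1LC3B in the same order was at 48.7, 109, 66.8 and 74.0 CPM.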
